A study of Rattus norvegicus with 16 samples.

Results

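Levels of 27 cadherin and protocadherin genes were measured by Affymetrix array in 4 microdissected nuclei of the rat brain, among 15037 genes in all. The members were taken by name, as every gene whose symbol in the array's annotation was Cdh or Pcdh followed by a number alone, with Cdh5 left out, and that rule reads symbols and no measured value. They comprised the type I classical cadherins Cdh1, Cdh2, Cdh3 and Cdh15, the type II cadherins Cdh6, Cdh7, Cdh8, Cdh9, Cdh10, Cdh11, Cdh19, Cdh20 and Cdh22, and the divergent cadherins Cdh13, Cdh16, Cdh17 and Cdh26. The others were the tip link cadherins Cdh23 and Pcdh15, the delta-1 protocadherins Pcdh7 and Pcdh9, the delta-2 protocadherins Pcdh8, Pcdh17, Pcdh18 and Pcdh19, and Pcdh12 and Pcdh20. These groups were not complete. Cdh4 (type I), Cdh12, Cdh18 and Cdh24 (type II), Pcdh1 (delta-1) and Pcdh10 (delta-2) were not among the genes with a symbol here.

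Cadherins are calcium-dependent adhesion molecules that bind mostly the same cadherin on a neighbouring cell. Classical cadherins carry a cytoplasmic tail that binds beta-catenin and p120-catenin and, through alpha-catenin, the actin cytoskeleton. Delta-protocadherins lack that catenin-binding tail, and some of them bind regulators of actin assembly. In the developing brain, nuclei, layers and fibre tracts each carry their own combination of these molecules, which is known to bear on how neurons sort, extend axons and choose synaptic partners.

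The animals were male Wistar rats 8 to 10 weeks old, all given 40% oxygen at 6 L/min for 60 min. One group breathed 2.4% sevoflurane, an inhaled anesthetic, and was set against a group given the oxygen alone (O2). Another received propofol, an intravenous anesthetic, as a 10 mg/kg bolus and then 36 mg/kg/hr, and was set against a group given the lipid vehicle Intralipos (10% lipid) on the same schedule. From each treatment, 4 nuclei were cut by laser from Nissl-stained frozen sections, which gave 16 arrays, 1 for each region and treatment. LHb and MHb are the lateral and medial parts of the habenula, an epithalamic structure, whereas the solitary nucleus (Sol), a viscerosensory relay, and MVe, the medial nucleus of the vestibular complex that serves balance, lie in the hindbrain. Labels do not tie arrays to single rats or say how many rats a sample held, so arrays of 1 treatment may share animals and p-values may then be too small.

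Values are log2 signals, so a difference of 1 is a factor of 2. The 4 treatments stood in for replicates of a region, and the 4 regions for replicates of a treatment. Each comparison came from 1 limma fit over all genes with treatment and region as terms, and a gene was called where its Benjamini-Hochberg adjusted p over all 15037 genes was under 0.05. The sevoflurane and O2 arrays had a higher mean signal (7.20 to 7.21) than the propofol and Intralipos arrays (6.97 to 6.99), and each region had the same number of arrays in both sets. All 27 members had 1 probe set each. Probe sets differ in how strongly they bind, so levels were compared between arrays and not between genes, and no detection call was used. Whether low signals lay above background was not tested, and a difference from a signal near background would be understated. Member means over the 16 arrays ran from 3.87 for Cdh26 to 14.31 for Pcdh9, and 17 of the 27 lay at or above the median of all gene means (6.93).

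The dissections were checked against marker genes of each nucleus. Of 11 medial habenula markers, 10 were lower in LHb than in MHb (median log2 difference -4.65), and Calb2 was higher in LHb. Of 5 lateral habenula markers, Gap43, Htr2c and Vgf were higher in LHb, whereas Htr4 and Gpr151 were lower there, with Gpr151 at a mean of 14.04 in LHb against 16.30 in MHb. All 5 hindbrain markers were lower in the habenula than in the hindbrain, taken as the mean of Sol and MVe. In MVe, Hoxb5 (mean 6.43) and Hoxb4 (4.0) lay close to MHb (6.08 and 3.5), and their difference rested mostly on Sol (13.08 and 7.8). Hoxa2, Hoxb3 and Hoxd3 were raised in both Sol and MVe. Of 6 solitary nucleus markers, 5 were higher in Sol than in MVe, and 5 of 6 medial vestibular markers were lower in Sol than in MVe. Other cell types also differed between the samples. Summed astrocyte markers lay at 18.89 to 19.42 in LHb and 17.26 to 17.78 in MHb, and 20.16 to 20.31 in Sol and 19.15 to 19.34 in MVe. Summed oligodendrocyte markers lay at 19.57 to 19.97 in LHb and 17.91 to 18.72 in MHb, and 17.47 to 18.02 in Sol and 19.53 to 20.13 in MVe. Summed choroid plexus markers lay at 9.47 to 9.95 in LHb and 14.13 to 15.01 in MHb, and 8.70 to 15.12 in Sol and 17.01 to 18.27 in MVe, so that the Sol arrays differed among themselves. Of the cerebellar granule and Purkinje cell markers, Pcp2 (mean 8.14, against 4.71 to 4.86 in the other regions) and Gabra6 (5.68, against 4.21 to 4.44) were highest in MVe. Calb1 and Pcp4 were lowest in MVe, and Neurod1 was highest in MHb. Whether the MVe samples held cerebellar tissue was not tested. In whole pieces of tissue, fewer cells of a type and less RNA per cell cannot be told apart.

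Of the 27 members, 20 differed among the 4 regions (limma F test), where 54.1% of all genes did. The median distance between a member's highest and lowest region was 2.16 on the log2 scale, against 0.62 over all genes. All 9 measured type II cadherins, both measured delta-1 and all 4 measured delta-2 protocadherins were among the 20. The others were Cdh2 and Cdh3 of the type I group, Cdh13, Pcdh15 and Pcdh20. The members that did not pass were Cdh1 (E-cadherin, of epithelia), Cdh15 (M-cadherin, of muscle), Cdh16 (kidney), Cdh17 (liver and intestine), Cdh23, Cdh26 and Pcdh12 (an endothelial protocadherin), whose region ranges were 0.13 to 0.50. Their means over the 16 arrays were all low, from 3.87 to 5.82, below the median of all gene means (6.93). Whether they lay above background was not tested. Cdh3, Cdh9 and Pcdh15, which passed, also lay below that median. Among the 20 called members the highest level was in LHb for 9 (45.0%), in MHb for 5, in Sol for 4 and in MVe for 2. Among all 8139 called genes LHb was highest for 10.4%, MHb for 34.8%, Sol for 29.0% and MVe for 25.9%. The lowest level was in MHb for 8 members and in MVe for 8, in Sol for 3 and in LHb for 1. Among all called genes it was in MHb for 33.1%, in MVe for 30.5%, in Sol for 23.8% and in LHb for 12.6%.

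**Figure D1:**
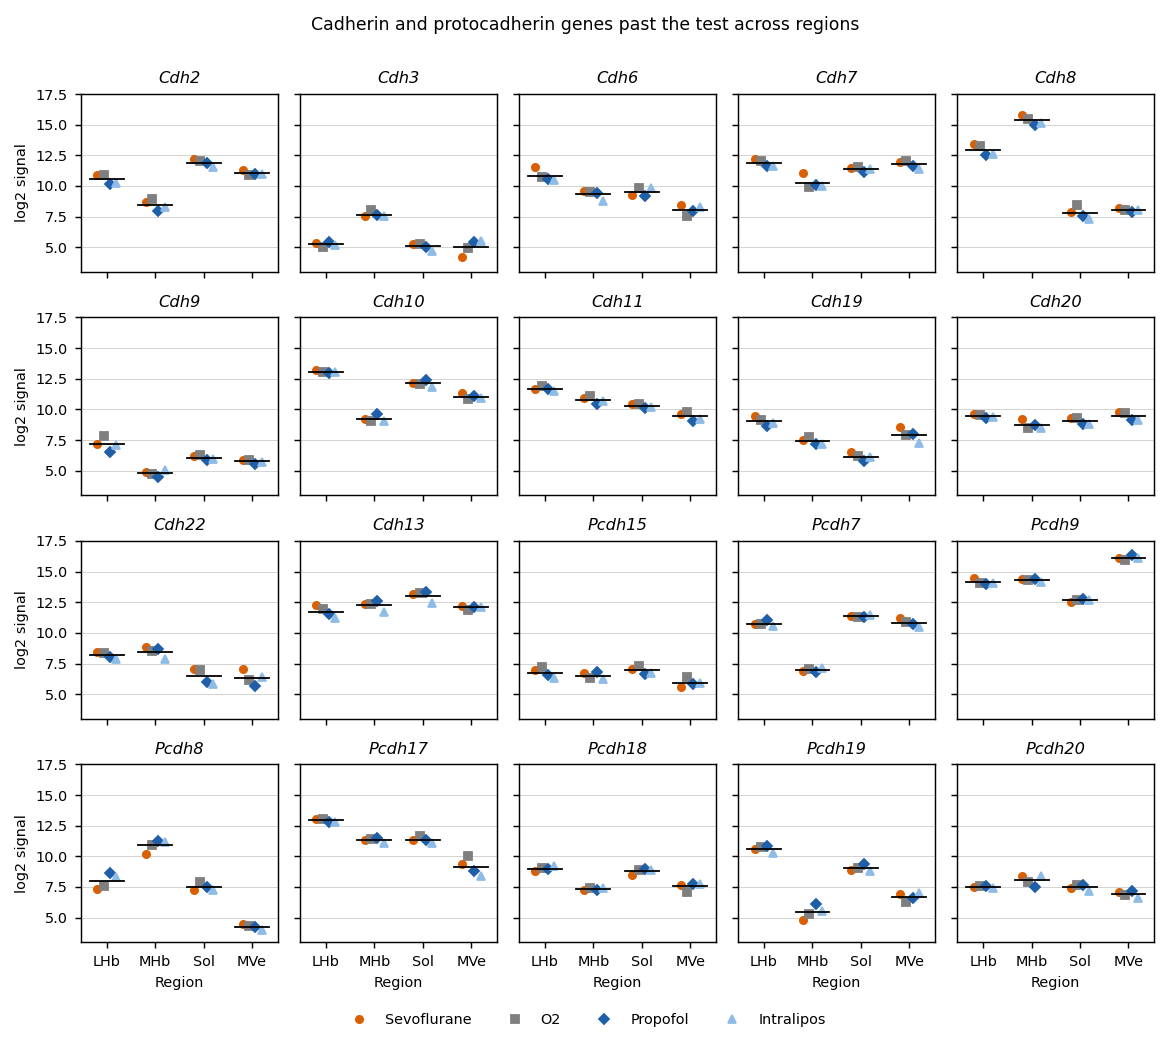
Log2 signal of the 20 members past the F test by region, with 1 symbol per array (4 per region, shaped and coloured by treatment) and a line at the region mean. Cdh8 stood between 12.56 and 15.83 in the 8 habenula arrays and between 7.33 and 8.41 in the 8 hindbrain arrays, whereas Pcdh7 was low in MHb alone.

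**Figure D2:**
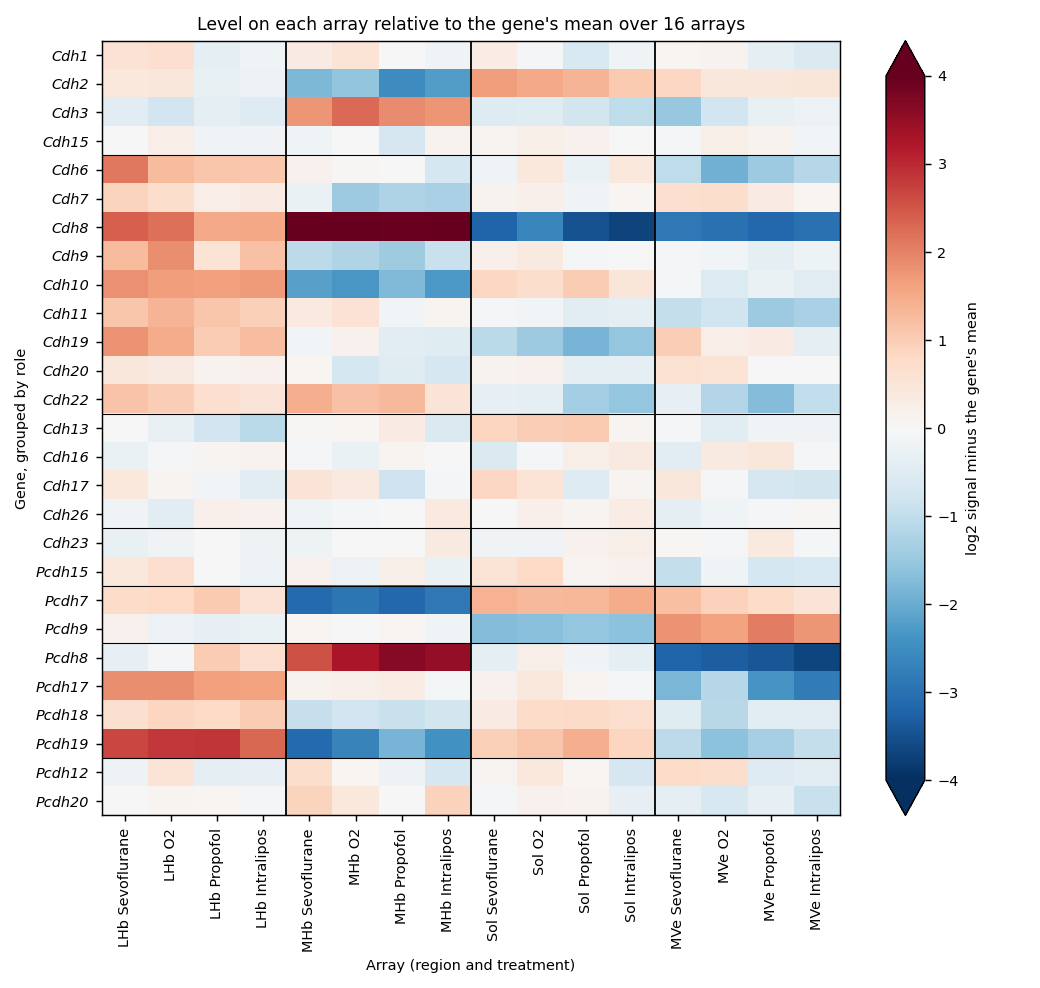
Log2 signal of each member minus its mean over the 16 arrays, with members in rows grouped by role and arrays in columns grouped by region. Blocks of 1 colour mark members that were high or low in a whole region, such as Pcdh7, which was low in all 4 MHb arrays (6.82 to 7.13).

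The sequence before the transcription start is shown for 4 members that carry the region differences below. They are the pair with the largest habenula against hindbrain differences (Cdh8 and Pcdh8) and the pair with the largest LHb against MHb differences (Cdh10 and Pcdh7) among the 18 members that had a RefSeq promoter entry. Each is the 250 bases before the start in the direction of the gene, from RefSeq on build GRCr8, which may differ from the build behind the array. Cdh8 lies at chr19:5500216-5500465 on the plus strand, Pcdh8 at chr15:61612091-61612340 on the minus strand, Cdh10 at chr2:70355439-70355688 on the plus strand and Pcdh7 at chr14:57113523-57113772 on the minus strand. Capitals mark matches to the motifs searched on both strands, which were the TATA box with letters TATAAA, the octamer ATGCAAAT that POU proteins bind, the box CCAAT, the GC box with letters GGGCGG, the Snail-type E-box with letters CAGGTG and the homeodomain core with letters TAATTA.
Cdh8: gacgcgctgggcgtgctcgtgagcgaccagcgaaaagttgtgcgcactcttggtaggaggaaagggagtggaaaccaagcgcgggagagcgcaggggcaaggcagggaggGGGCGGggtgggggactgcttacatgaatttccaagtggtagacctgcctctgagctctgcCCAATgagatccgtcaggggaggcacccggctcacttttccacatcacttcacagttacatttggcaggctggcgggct
Pcdh8: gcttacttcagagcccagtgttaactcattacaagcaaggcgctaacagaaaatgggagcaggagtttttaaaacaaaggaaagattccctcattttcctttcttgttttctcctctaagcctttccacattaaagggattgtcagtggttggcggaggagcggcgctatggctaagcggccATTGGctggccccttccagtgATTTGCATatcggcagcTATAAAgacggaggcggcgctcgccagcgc
Cdh10: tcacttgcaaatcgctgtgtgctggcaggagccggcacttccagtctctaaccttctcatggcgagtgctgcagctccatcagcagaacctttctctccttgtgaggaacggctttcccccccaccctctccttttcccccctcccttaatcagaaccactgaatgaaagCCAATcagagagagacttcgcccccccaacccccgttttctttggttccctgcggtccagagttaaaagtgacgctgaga
Pcdh7: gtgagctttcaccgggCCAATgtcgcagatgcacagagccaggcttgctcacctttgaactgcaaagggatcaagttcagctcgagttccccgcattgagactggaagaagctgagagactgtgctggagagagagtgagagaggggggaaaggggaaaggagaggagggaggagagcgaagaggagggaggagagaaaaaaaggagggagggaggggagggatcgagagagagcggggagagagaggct

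The Pcdh8 stretch held a CCAAT match 68 bases before the start, an octamer match at 47 bases and a TATA match at 30 bases. The Cdh8 stretch held a GC box match 140 bases and a CCAAT match 79 bases before the start, Cdh10 a CCAAT match at 80 bases and Pcdh7 a CCAAT match at 234 bases. Among all 33469 promoters of that length in the table, CCAAT or its reverse occurred in 34.02%, GGGCGG in 30.47%, CAGGTG in 15.9%, TATAAA in 12.93%, TAATTA in 4.86% and the octamer in 1.56%. Among the 18 members, CCAAT occurred in 12, GGGCGG in 5, TATAAA in 2 (Cdh19 and Pcdh8), the octamer in 1 (Pcdh8), CAGGTG in 1 (Pcdh15) and TAATTA in 0. A match is a string of letters and was not tested as a binding site.

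Between the nuclei of the habenula, 12 members were higher in LHb than in MHb and 3 were lower, together 15 of 27. Of all genes 28.5% were called in this comparison, 14.1% as higher and 14.4% as lower. The median difference over the members was 0.17, against -0.04 over all genes, and the median size regardless of sign was 0.89 against 0.26. The members higher in LHb were Pcdh19, Cdh10, Pcdh7, Cdh9, Cdh2, Pcdh18, Cdh19, Pcdh17, Cdh7, Cdh6, Cdh11 and Cdh20, and those lower were Pcdh8, Cdh3 and Cdh8. Summed astrocyte and oligodendrocyte markers were also higher in LHb and summed choroid plexus markers lower, as given above. The astrocyte marker Gfap went the other way, at a mean of 14.38 in LHb and 15.17 in MHb. All 5 endothelium, 5 of 7 meninges and fibroblast and 3 of 5 microglia markers were called higher in LHb, and 3 of 4 ependyma markers lower. The part of these cell types in the 12 and 3 was not tested.

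Between the hindbrain nuclei, 13 members were higher in Sol than in MVe and 2 were lower, where 35.2% of all genes were called, 19.3% as higher (2901 genes) and the other 2399 genes as lower. The median difference over the members was 0.31 against -0.02 over all genes, and the median size was 0.52 against 0.31. Higher in Sol were Pcdh8, Pcdh19, Pcdh17, Cdh6, Pcdh18, Cdh10, Pcdh15, Cdh13, Cdh11, Cdh2, Pcdh20, Pcdh7 and Cdh17, and lower were Pcdh9 and Cdh19. With each array centred on its own median, 10 members were higher and 4 lower in Sol, and the share of higher calls over all genes was 38.8% in place of 54.7%. Cdh17, Pcdh20 and Pcdh7 were not called under that scaling, which moved the median of all genes by -0.15. The same scaling in LHb against MHb gave 12 members higher and 5 lower, and 38.4% in place of 49.4% of calls higher over all genes. All 5 microglia markers were higher in Sol, while all 6 oligodendrocyte, all 5 endothelium and all 7 choroid plexus markers were lower there, and their part in these counts was not tested.

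Between habenula (mean of LHb and MHb) and hindbrain (mean of Sol and MVe), 10 members were higher and 5 lower, where 38.1% of all genes were called, 18.3% as higher and 19.8% as lower. With each array centred on its own median the members' counts were also 10 and 5, while the share of higher calls over all genes was 57.7% in place of 48%. The median difference was 0.01 over the members and -0.01 over all genes, with a median size of 0.43 against 0.23. Cdh8, Pcdh8, Cdh22, Pcdh17, Cdh3, Cdh11, Cdh6, Cdh19, Pcdh20 and Cdh1 were higher in the habenula, and Pcdh7, Cdh2, Cdh13, Cdh7 and Cdh10 were lower. Of 7 astrocyte markers 6 were lower in the habenula, and 5 of 6 oligodendrocyte markers were higher there, which was not tested as a part of these differences.

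**Figure D3:**
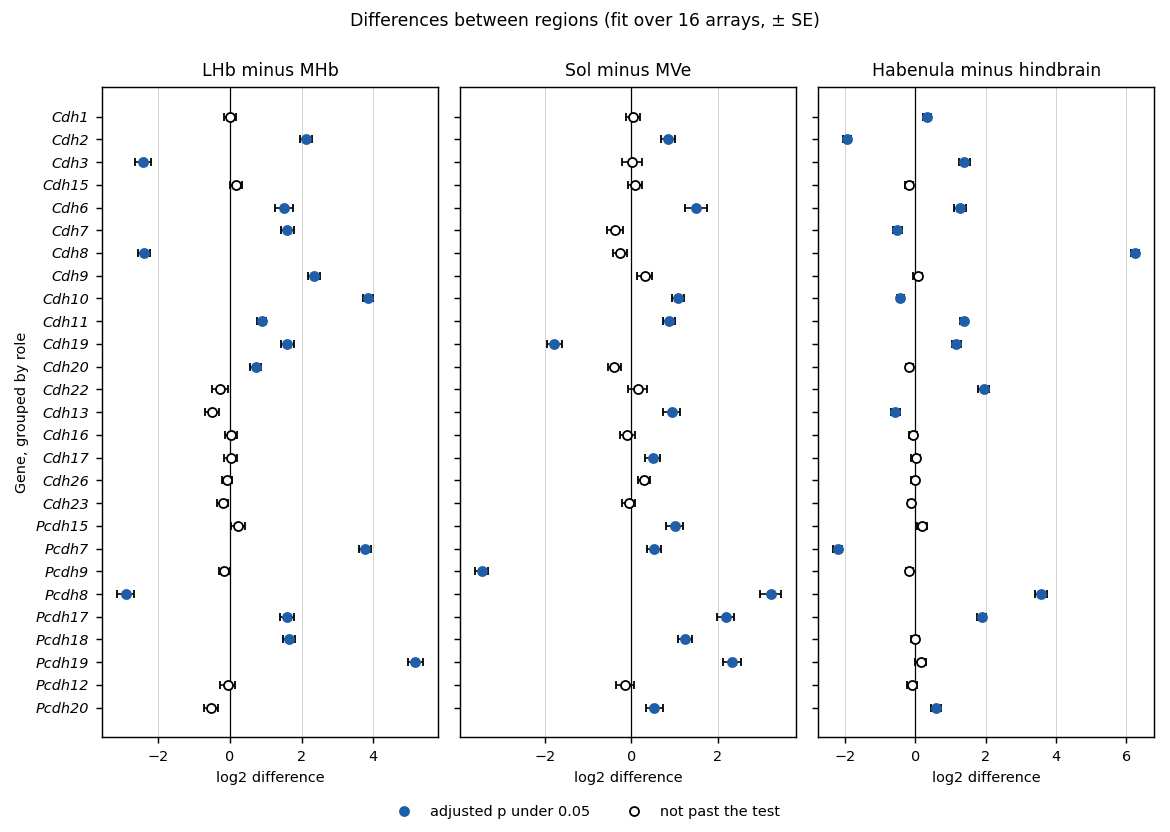
Log2 difference of each member in LHb minus MHb, Sol minus MVe and habenula minus hindbrain, with the standard error of the limma fit and filled points where the adjusted p was under 0.05. The points run from -3.46 (Pcdh9, Sol minus MVe) to 6.24 (Cdh8, habenula minus hindbrain).

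Cdh8, a type II cadherin of particular neuron groups, differed most of all members between the habenula and the hindbrain. In each set of 4 values here and below, the order is sevoflurane, O2, propofol and Intralipos. Cdh8 stood at 13.42, 13.24, 12.56 and 12.58 in LHb, at 15.83, 15.50, 14.98 and 15.13 in MHb, at 7.84, 8.41, 7.55 and 7.33 in Sol, and at 8.19, 8.04, 7.90 and 8.04 in MVe. Every MHb array lay above every LHb array and every habenula array above every hindbrain array, whereas Sol and MVe overlapped. The habenula exceeded the hindbrain by 6.24 ± 0.12 (SE), a 75.7-fold difference (limma adjusted p = 4.6e-17), and LHb differed from MHb by -2.41 ± 0.17 (adjusted p = 3.3e-09). In the sevoflurane and O2 arrays alone the habenula difference of Cdh8 was 6.38, and in the propofol and Intralipos arrays alone it was 6.11.

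Cdh10, another type II cadherin of neurons, ran the other way within the habenula. It stood at 13.19, 13.05, 13.01 and 13.08 in LHb, at 9.18, 9.03, 9.59 and 9.08 in MHb, at 12.18, 12.08, 12.37 and 11.84 in Sol, and at 11.30, 10.82, 11.10 and 10.92 in MVe. The 4 regions did not overlap, in the order LHb, Sol, MVe and MHb. LHb exceeded MHb by 3.86 ± 0.15 (limma adjusted p = 1.1e-12) and Sol exceeded MVe by 1.08 ± 0.15 (adjusted p = 1.1e-05). The habenula as a whole differed from the hindbrain by -0.43 ± 0.10 (adjusted p = 0.0029), a mean that joins the highest and the lowest of the 4 regions. That difference was -0.37 in the propofol and Intralipos arrays alone and was not called there (adjusted p = 0.141).

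Of the remaining type II cadherins, Cdh9, Cdh7, Cdh6, Cdh11, Cdh19 and Cdh20 were higher in LHb than in MHb. Cdh9, known from synapses between the dentate gyrus and CA3 of the mouse hippocampus, averaged 7.15 ± 0.54 in LHb and 4.80 ± 0.23 in MHb, and 6.07 ± 0.20 in Sol and 5.76 ± 0.16 in MVe (SD over 4 arrays, as in all means below), with an LHb against MHb difference of 2.35 ± 0.17 (SE, limma adjusted p = 4.6e-09). Each such SD spans the 4 treatments and both array sets, so it takes in any shift between the sets. Cdh7 averaged 11.87 ± 0.30 in LHb and 10.27 ± 0.54 in MHb, and 11.40 ± 0.16 in Sol and 11.76 ± 0.29 in MVe. All 4 MHb arrays of Cdh7 lay below the other 12. Its habenula against hindbrain difference was -0.51 ± 0.13, and in the sevoflurane and O2 arrays alone it was -0.45 and not called (adjusted p = 0.144).

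Cdh6, which in the mouse marks retinal ganglion cells and their targets, averaged 10.83 ± 0.47 in LHb and 9.32 ± 0.39 in MHb, and 9.54 ± 0.37 in Sol and 8.04 ± 0.40 in MVe. Its LHb against MHb difference (1.51 ± 0.25) and its Sol against MVe difference (1.50 ± 0.25, limma adjusted p = 9.4e-05) were of the same size. Cdh11, also known from bone and connective tissue, averaged 11.67 ± 0.18 in LHb and 10.79 ± 0.29 in MHb, and 10.30 ± 0.18 in Sol and 9.42 ± 0.31 in MVe. In both genes the LHb arrays lay above all others and the MVe arrays below all others.

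Cdh19, known from Schwann cell precursors, averaged 9.01 ± 0.35 in LHb and 7.41 ± 0.30 in MHb, and 6.16 ± 0.32 in Sol and 7.94 ± 0.54 in MVe. It was higher in LHb than in MHb by 1.60 ± 0.18 and lower in Sol than in MVe by -1.78 ± 0.18 (limma adjusted p = 2.8e-07), and summed oligodendrocyte markers were likewise higher in LHb and lower in Sol. Whether oligodendrocyte content had a part in the Cdh19 differences was not tested. Cdh20 averaged 9.46 ± 0.15 in LHb and 8.74 ± 0.35 in MHb, and 9.07 ± 0.31 in Sol and 9.46 ± 0.35 in MVe, and its called difference was LHb above MHb by 0.72 ± 0.15, which was not called in the sevoflurane and O2 arrays alone.

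Cdh22, a brain and pituitary cadherin, separated the habenula from the hindbrain and not the nuclei within either. It averaged 8.18 ± 0.27 in LHb and 8.46 ± 0.42 in MHb, and 6.46 ± 0.64 in Sol and 6.30 ± 0.58 in MVe. The 8 habenula arrays all lay above the 8 hindbrain arrays, by 1.94 ± 0.15 on average (limma adjusted p = 7.8e-09). The LHb against MHb difference of Cdh22 was -0.28 ± 0.22 and the Sol against MVe difference 0.15 ± 0.22, neither past the test.

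Among type I cadherins, Cdh2 (N-cadherin, found at synapses and at junctions of neural progenitors and glia) was lowest in MHb. It stood at 10.92, 10.93, 10.18 and 10.25 in LHb, at 8.68, 8.90, 7.97 and 8.26 in MHb, at 12.16, 12, 11.86 and 11.54 in Sol, and at 11.31, 10.93, 10.94 and 10.98 in MVe. The 4 regions did not overlap, in the order Sol, MVe, LHb and MHb. LHb exceeded MHb by 2.12 ± 0.16 (limma adjusted p = 8.1e-09), Sol exceeded MVe by 0.85 ± 0.16 (adjusted p = 4.0e-04), and the habenula differed from the hindbrain by -1.95 ± 0.11 (adjusted p = 1.2e-10). Summed astrocyte markers were also highest in Sol and lowest in MHb, and their part in the Cdh2 differences was not tested. Of single markers, Aldh1l1 was lowest in Sol (mean 7.94) and Gfap lowest in MVe (14.21), while the others were highest in Sol and lowest in MHb.

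Cdh3 (P-cadherin, an epithelial cadherin) was high in MHb alone. It stood at 5.31, 4.98, 5.40 and 5.22 in LHb, at 7.51, 8.01, 7.64 and 7.51 in MHb, at 5.23, 5.27, 5.03 and 4.73 in Sol, and at 4.22, 4.97, 5.45 and 5.53 in MVe. The 4 MHb arrays lay above the other 12, which overlapped between regions. LHb differed from MHb by -2.44 ± 0.23 (limma adjusted p = 1.3e-07). Summed choroid plexus markers were lower in LHb than in MHb and were highest in MVe, and 4 of 7 single markers were called lower in LHb than in MHb. Otx2 was highest in MHb (mean 12.82, against 8.84 in LHb, 5.27 in Sol and 6.74 in MVe), while the others were highest in MVe. Ependyma markers summed to 6.82 to 7.22 in LHb and 7.89 to 9.18 in MHb, and 7.40 to 8.14 in Sol and 7.55 to 7.94 in MVe, and 3 of 4 were lower in LHb than in MHb. The part of either cell type in the Cdh3 difference was not tested. Cdh1 averaged 5.28 ± 0.53 in LHb and 5.28 ± 0.32 in MHb, and 4.96 ± 0.38 in Sol and 4.92 ± 0.36 in MVe, a habenula against hindbrain difference of 0.34 ± 0.11 (adjusted p = 0.0217) that was not called in either array set alone, nor without the LHb O2, MHb propofol, Sol O2 or Sol propofol array.

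Cdh13 (T-cadherin, held to the membrane by a lipid anchor and without a cytoplasmic tail) averaged 11.74 ± 0.47 in LHb and 12.25 ± 0.39 in MHb, and 13.03 ± 0.43 in Sol and 12.09 ± 0.15 in MVe. Ranked by level as Sol, MHb, MVe and LHb, each region overlapped the next, while every Sol array lay above every MVe array. Sol exceeded MVe by 0.94 ± 0.19 (limma adjusted p = 7.7e-04), and the habenula differed from the hindbrain by -0.57 ± 0.14 (adjusted p = 0.0026). In the propofol and Intralipos arrays alone the Sol difference was 0.72 (adjusted p = 0.0787), and in the sevoflurane and O2 arrays alone the habenula difference was -0.39 (adjusted p = 0.0760).

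Of the tip link cadherins, which join the stereocilia of inner ear hair cells, Pcdh15 was higher in Sol than in MVe by 1.01 ± 0.19 (limma adjusted p = 4.2e-04). It averaged 6.74 ± 0.40 in LHb and 6.51 ± 0.27 in MHb, and 6.94 ± 0.33 in Sol and 5.93 ± 0.33 in MVe. Its partner Cdh23 stayed between 4.08 and 4.78 in all 16 arrays.

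The delta-1 protocadherins Pcdh7 and Pcdh9 had unlike region profiles. Pcdh7 stood at 10.70, 10.76, 11.02 and 10.56 in LHb, at 6.87, 7.09, 6.82 and 7.13 in MHb, at 11.35, 11.27, 11.30 and 11.45 in Sol, and at 11.19, 10.89, 10.71 and 10.48 in MVe. MHb lay far below the other 3 regions, so that LHb exceeded MHb by 3.78 ± 0.17 (limma adjusted p = 5.3e-12) and the habenula differed from the hindbrain by -2.21 ± 0.12 (adjusted p = 2.8e-11). The Sol against MVe difference of Pcdh7 was 0.52 ± 0.17 (adjusted p = 0.0192), and it was not called without the Sol Intralipos, MVe propofol or MVe Intralipos array, each left out in turn, nor in the sevoflurane and O2 arrays alone. That of Cdh17 (0.50 ± 0.17, adjusted p = 0.0346) was not called without the Sol sevoflurane, Sol O2, Sol Intralipos, MVe O2 or MVe Intralipos array, nor in either array set alone.

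Pcdh9 stood at 14.47, 14.09, 13.99 and 14.04 in LHb, at 14.39, 14.30, 14.38 and 14.14 in MHb, at 12.56, 12.65, 12.77 and 12.67 in Sol, and at 16.12, 15.93, 16.37 and 16.08 in MVe. MVe was the highest and Sol the lowest region with no overlap, whereas LHb and MHb overlapped. Sol differed from MVe by -3.46 ± 0.15 (limma adjusted p = 3.3e-12), and the habenula mean lay between them, at -0.17 ± 0.10 from the hindbrain mean. The LHb against MHb difference of Pcdh9 was -0.16 ± 0.15. Oligodendrocyte markers were lower in Sol than in MVe and higher in LHb than in MHb, and their part in the Pcdh9 differences was not tested.

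All 4 measured delta-2 protocadherins differed in both within-division comparisons, and Pcdh19, Pcdh17 and Pcdh18 were higher in LHb than in MHb and in Sol than in MVe. Pcdh19, an X-linked gene whose loss causes an epilepsy in humans, stood at 10.60, 10.75, 10.81 and 10.24 in LHb, at 4.82, 5.26, 6.09 and 5.52 in MHb, at 8.88, 9.06, 9.38 and 8.80 in Sol, and at 6.89, 6.31, 6.60 and 6.99 in MVe. The regions did not overlap and kept the order LHb, Sol, MVe and MHb, as for Cdh10. LHb exceeded MHb by 5.18 ± 0.21 (limma adjusted p = 2.7e-12), by 5.63 in the sevoflurane and O2 arrays alone and by 4.72 in the propofol and Intralipos arrays alone. Sol exceeded MVe by 2.33 ± 0.21 (adjusted p = 9.2e-08), while the habenula differed from the hindbrain by 0.15 ± 0.15 (adjusted p = 0.499).

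Pcdh17, which in the mouse sits at synapses of circuits between cortex and basal ganglia, stood at 13.04, 13.05, 12.84 and 12.79 in LHb, at 11.34, 11.39, 11.49 and 11.11 in MHb, at 11.36, 11.62, 11.30 and 11.10 in Sol, and at 9.36, 10.04, 8.82 and 8.39 in MVe. LHb was above and MVe below all other arrays. The differences were 1.60 ± 0.20 for LHb against MHb, 2.19 ± 0.20 for Sol against MVe (limma adjusted p = 7.1e-08) and 1.88 ± 0.14 for habenula against hindbrain (adjusted p = 3.3e-09). Pcdh18 averaged 8.99 ± 0.16 in LHb and 7.35 ± 0.08 in MHb, and 8.80 ± 0.20 in Sol and 7.55 ± 0.33 in MVe, with LHb above MHb by 1.65 ± 0.16 and Sol above MVe by 1.24 ± 0.16.

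Pcdh8 (arcadlin), which in rat hippocampal neurons is induced by synaptic activity and draws N-cadherin off the cell surface, was the delta-2 member that was lower in LHb than in MHb. It stood at 7.32, 7.60, 8.67 and 8.33 in LHb, at 10.19, 10.91, 11.29 and 11.17 in MHb, at 7.26, 7.88, 7.51 and 7.26 in Sol, and at 4.46, 4.34, 4.23 and 3.97 in MVe. MHb lay above and MVe below all other arrays, and LHb and Sol overlapped. LHb differed from MHb by -2.91 ± 0.24 (limma adjusted p = 2.4e-08), Sol from MVe by 3.23 ± 0.24 (adjusted p = 7.0e-09), and the habenula from the hindbrain by 3.57 ± 0.17 (adjusted p = 7.1e-12). The habenula difference was 3.02 in the sevoflurane and O2 arrays alone and 4.12 in the propofol and Intralipos arrays alone. Whether Pcdh8 lay above background in MVe was not tested, and if it did not, the differences that involve MVe are understated.

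Pcdh20 averaged 7.53 ± 0.07 in LHb and 8.06 ± 0.43 in MHb, and 7.48 ± 0.24 in Sol and 6.94 ± 0.26 in MVe. It was higher in the habenula than in the hindbrain by 0.59 ± 0.14 (limma adjusted p = 0.0025) and in Sol than in MVe by 0.54 ± 0.20 (adjusted p = 0.0439). The Sol difference of Pcdh20 was not called without the LHb O2, LHb propofol, LHb Intralipos, Sol O2, Sol propofol, MVe sevoflurane, MVe O2 or MVe Intralipos array, each left out in turn, nor with any other scaling, with a trend and robust variance, or in either array set alone. Its habenula difference was not called in the propofol and Intralipos arrays alone.

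The anesthetic comparisons asked whether 60 min of sevoflurane or propofol moved these genes. No member differed between sevoflurane and O2, where 0% of all genes were called, or between propofol and Intralipos, where 0.0200% were called (3 genes, all lower). At an unadjusted limma p under 0.05 there were 0 members and 751 genes for sevoflurane, and 1 member and 1040 genes for propofol. The median member difference was 0.01 for sevoflurane (14 members above 0) and 0.05 for propofol (17 above 0), and over all genes it was 0.01 for each. A p that misses the threshold does not show that a gene stayed at its level, since the standard errors of members ran from 0.14 to 0.25.

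**Figure D4:**
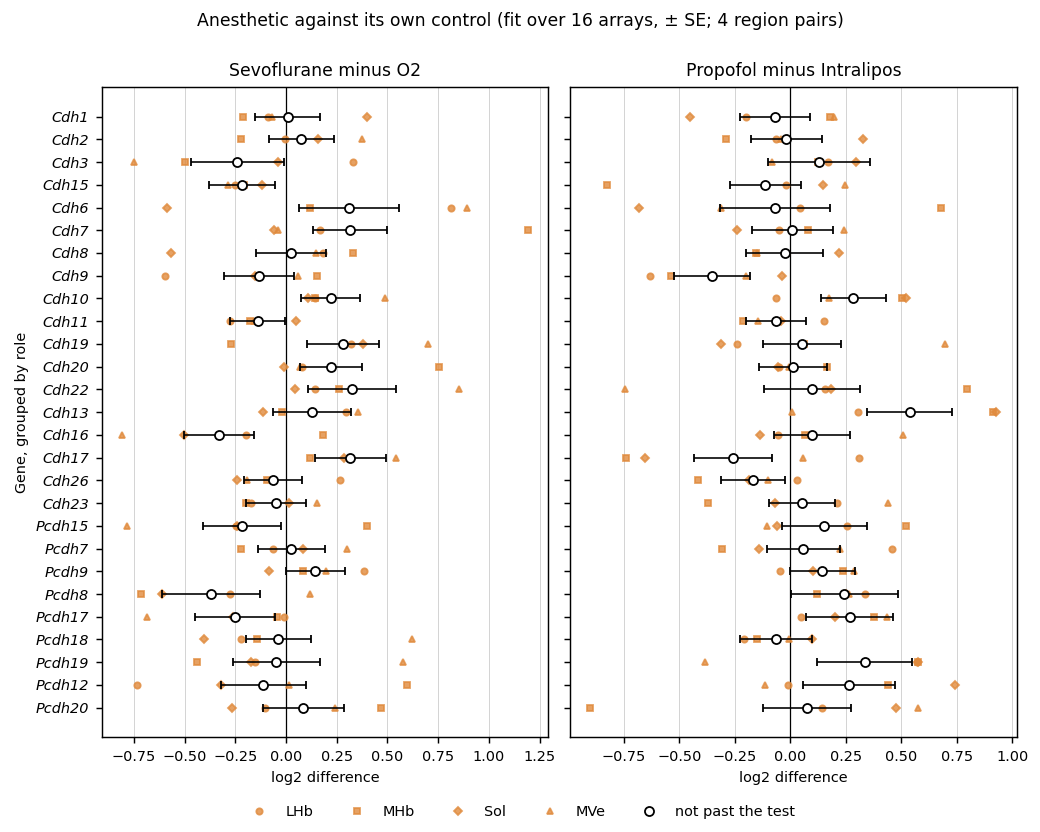
Log2 difference of each member in sevoflurane minus O2 and in propofol minus Intralipos, with small points for the 4 regions and large points with standard errors for the limma fit over all 16 arrays. All fitted differences lie between -0.37 (Pcdh8, sevoflurane) and 0.54 (Cdh13, propofol), and none passed the test.

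For sevoflurane minus O2, the 5 members with the smallest p were Cdh16 (-0.33 ± 0.17), Cdh17 (0.32 ± 0.17), Cdh7 (0.31 ± 0.18), Cdh19 (0.28 ± 0.18) and Pcdh8 (-0.37 ± 0.24), with limma adjusted p from 0.982 to 0.989. For Pcdh8, the activity-induced member, the difference was -0.28 in LHb and -0.71 in MHb, and -0.61 in Sol and 0.12 in MVe. The Cdh7 value rested on MHb, where the difference was 1.19, against 0.17 in LHb, -0.06 in Sol and -0.04 in MVe. Cdh10, Cdh17 and Cdh22 were above their O2 arrays in all 4 regions, and Cdh15 and Pcdh17 below. That is 11.1% of members higher and 7.41% lower in every region, against 7.18% and 6.47% of all genes.

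For propofol minus Intralipos, the 5 members with the smallest p were Cdh13 (0.54 ± 0.19), Cdh9 (-0.35 ± 0.17), Cdh10 (0.28 ± 0.15), Pcdh19 (0.34 ± 0.21) and Cdh17 (-0.26 ± 0.17), with limma adjusted p from 0.646 to 0.832. Cdh13 was the member with an unadjusted p under 0.05 in the limma fit. It stood at 11.51, 12.61, 13.33 and 12.14 under propofol in LHb, MHb, Sol and MVe, against 11.21, 11.70, 12.40 and 12.13 under Intralipos. All 4 regions had the higher value under propofol, with differences of 0.31, 0.91, 0.93 and 0.01. Pcdh17 and Pcdh8 were also higher in all 4 regions and Cdh9 lower, which is 11.1% of members higher and 3.7% lower, against 8.36% and 6.68% of all genes.

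The sevoflurane and propofol effects were also set against each other. No member passed, where 0.0133% of all genes did, and the smallest p belonged to Cdh17, whose sevoflurane effect exceeded its propofol effect by 0.57 ± 0.25 (limma adjusted p = 0.952). Pcdh17 (-0.52 ± 0.28), Pcdh8 (-0.61 ± 0.34), Cdh16 (-0.43 ± 0.24) and Cdh13 (-0.41 ± 0.27) followed. No member's anesthetic effect differed between habenula and hindbrain, where 0% of all genes were called for either drug. For sevoflurane the 5 smallest p were those of Cdh7 (0.73 ± 0.34), Cdh16 (0.65 ± 0.32), Pcdh15 (0.59 ± 0.37), Cdh19 (-0.52 ± 0.35) and Cdh8 (0.47 ± 0.33), given as the effect in the habenula minus that in the hindbrain. For propofol they were those of Pcdh20 (-0.91 ± 0.36), Cdh15 (-0.62 ± 0.30), Cdh6 (0.86 ± 0.43), Cdh22 (0.76 ± 0.39) and Cdh9 (-0.47 ± 0.35), and the limma adjusted p of these 10 ran from 0.918 to 0.962.

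Catenins and other junction linkers, which tie classical cadherins to actin, were measured for 10 genes, and all 10 differed among the regions, against 54.1% of all genes. In LHb against MHb 4 were higher and 3 lower (28.5% of all genes called), in Sol against MVe 7 were higher and 1 lower (35.2% of all genes), and in habenula against hindbrain 5 were higher and 3 lower (38.1% of all genes). Beta-catenin (Ctnnb1) differed by -0.81 ± 0.13 in LHb against MHb, by 1.15 ± 0.13 in Sol against MVe and by 1.15 ± 0.09 in habenula against hindbrain (limma adjusted p = 6.5e-09). Plakoglobin (Jup), which can take its place at junctions, differed by -1.93 ± 0.18 in LHb against MHb, and alpha-E-catenin (Ctnna1) by 1.50 ± 0.17. Ctnna2, the neuronal alpha-catenin, was higher in Sol than in MVe by 1.38 ± 0.16 and Ctnnd2, a neuronal member of the p120 family, by 1.36 ± 0.16.

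Of 15 measured enzymes and signalling partners of cadherins, 2 were higher and 1 lower in LHb than in MHb (28.5% of all genes called), 6 higher and 1 lower in Sol than in MVe (35.2%), and 3 higher and 4 lower in the habenula than in the hindbrain (38.1%). The receptor phosphatases Ptprf and Ptprm were higher in LHb than in MHb (1.03 ± 0.20 and 0.91 ± 0.16) and in Sol than in MVe (1.05 ± 0.20 and 0.60 ± 0.16), and lower in the habenula than in the hindbrain (-1.05 ± 0.14 and -0.87 ± 0.11). Nckap1, a subunit of the WAVE actin-regulating complex that delta-2 protocadherins are known to bind, was lower in LHb than in MHb by -0.59 ± 0.13.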

How the data were processed

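The analysis started from the deposited series table of 24834 probe sets on 16 arrays, which holds log2 signals from 2.47 to 19.93 as deposited by the authors. Affymetrix Expression Console 1.3.0 is named in the submitters' processing notes, with no settings for summarization or normalization. Per the labels' protocols, 30 µm sections were microdissected and 100 ng of total RNA was labelled. That the values are log2 was read from their range. The sevoflurane and O2 arrays and the propofol and Intralipos arrays have different means, so they may have been normalized separately, and the effect of each anesthetic was tested against its own control only.

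Control probe sets (31) and the 9754 probe sets with no symbol here were left out. The 15049 probe sets with 1 symbol came from the platform's annotation, and the brightest of each gene was kept, which gave 15037 genes. Linear models of treatment plus region were fitted to all genes with limma 3.58.1 (functions lmFit and eBayes, two-sided tests) under R 4.3.3, with Benjamini-Hochberg adjustment over all of them. A second fit with treatment by division terms tested whether each anesthetic effect differed between habenula and hindbrain. The fits were tested on simulated data first. The number of arrays limits the precision.

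Full values are given for members past the region F test, for at most 8 members per direction of each region contrast by size, and for the 5 members with the smallest p in each anesthetic test. Cdh5 was left out of the members and counted among the endothelium markers. The gene family, the lists and the tests were chosen with earlier results of these data known, and the rule that names the members reads symbols only. Marker lists also covered neurons, oligodendrocyte precursors, meninges, cerebellar cells and thalamus. Alternatives were 2 other scalings, a trend and robust variance, a filter on dim genes, the mean of all probes, each array left out in turn, each array set alone, the 8 arrays of a drug and its control alone, and region within array set as a block.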

Additional observations from a re-analysis of the deposited data

Results flagged for a closer look

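Among 108 sets of 4 arrays (27 members in 4 regions), 3 held an array far from the others by Dixon's ratio above its critical value for 4 values, where chance gives about 1 in 20 sets. Cdh2 was 11.31 in the MVe sevoflurane array, against 10.93 to 10.98 in the other MVe arrays. Pcdh12 was 4.67 in the LHb O2 array, against 3.78 to 3.93 in the other LHb arrays. Pcdh18 was 7.06 in the MVe O2 array, against 7.68 to 7.74 in the other MVe arrays.

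Some members moved in opposite directions in every array pair of 2 sets of pairs, and the tests of these differences did not pass. Pcdh17 was below O2 under sevoflurane and above Intralipos under propofol in all 4 regions, with an effect difference of -0.52 (limma adjusted p = 0.991). The sevoflurane effect in the habenula minus that in the hindbrain was -0.38 for Cdh2, -0.27 for Cdh23, 0.73 for Cdh7 and -0.33 for Pcdh7 (limma adjusted p from 0.927 to 0.995). The propofol effect in the habenula minus that in the hindbrain was -0.62 for Cdh15, 0.86 for Cdh6 and 0.47 for Pcdh15 (limma adjusted p from 0.918 to 0.961). Some of these signs rest on very small differences. In LHb, Cdh2 differed by -0.007 under sevoflurane, and Pcdh17 by -0.011 under sevoflurane and 0.049 under propofol. How many of all genes meet the same sign rule was not counted, so these members are not set apart from other genes.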

How the results depend on the processing

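The 59 member results with the largest changes or smallest p were recomputed, which gave 1318 alternative values, of which 1314 kept direction and call, 4 kept direction only and 0 turned round. The 4 were Cdh13 (in 2 contrasts), Cdh7 and Cdh10, whose values within 1 array set stand in the report. The 59 include the anesthetic results and the tests of their differences, none of which was called. For these, keeping the call means staying uncalled, which says little about how firm the called differences are. Smaller called differences outside those 59 lost their call more often: Cdh17, Pcdh7 and Pcdh20 in Sol against MVe, Cdh1 and Pcdh20 in habenula against hindbrain, and Cdh20 in LHb against MHb, under the settings named in the report. The number of members called stayed within 1.5 times the main count in every region comparison and setting. With each array left out in turn, members called were 20 to 21 in the F test (7639 to 7986 genes), 15 to 16 for LHb against MHb (3739 to 4386 genes), 12 to 16 for Sol against MVe (4671 to 5324 genes) and 14 to 15 for habenula against hindbrain (5326 to 5568 genes). The lowest count for Sol against MVe came without the MVe Intralipos array, which lost Cdh17, Pcdh20 and Pcdh7. In the propofol and Intralipos arrays alone the F test called 17 of the 20 members, without Cdh20, Pcdh15 and Pcdh20.

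With fewer arrays the gene counts fell: LHb against MHb called 2721 genes in the sevoflurane and O2 arrays alone and 2714 in the propofol and Intralipos arrays alone, where Sol against MVe called 3233 and habenula against hindbrain 3552. For the anesthetics, no setting called a member. A trend and robust variance called 2 genes for sevoflurane and 4 for the difference between the effects, region within array set as a block called 1 for that difference, and the 8 propofol and Intralipos arrays alone called 1. Leaving out each array gave 0 to 8 genes for sevoflurane (8 without the LHb sevoflurane array), 0 to 5 for propofol, 0 to 4 for their difference, 0 to 1 for the sevoflurane effect between divisions and 0 for propofol. Signals of the dimmest members, such as Cdh26 and Cdh17, may lie near background, which was not tested.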

Other observations

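The clustered protocadherins, which give single neurons their surface identity, were measured for 13 genes. They are related in sequence, so probes may read more than 1 of them, which was not tested. In habenula against hindbrain 5 of the 13 were higher and 0 lower, against 38.1% of all genes called and 18.3% higher (Pcdhb8 0.86 ± 0.16, Pcdhb6 0.51 ± 0.13, Pcdhb9 0.48 ± 0.15, Pcdhb10 0.42 ± 0.15 and Pcdhb5 0.38 ± 0.12). Pcdha4 was lower in LHb than in MHb by -1.64 ± 0.15 (limma adjusted p = 1.1e-07), and Pcdhgc5 was higher in Sol than in MVe by 2.07 ± 0.23 (limma adjusted p = 9.8e-07). For propofol minus Intralipos none passed, with 5 at an unadjusted limma p under 0.05. The median of the 13 was 0.38, 11 lay above 0, and Pcdha4, Pcdhb3, Pcdhb5, Pcdhb6, Pcdhb9 and Pcdhgc5 were higher under propofol in all 4 regions (46.2% of the list, against 8.36% of all genes). Some of these signs rest on very small differences, such as Pcdhb3 in Sol (6.36 under propofol, 6.35 under Intralipos) and Pcdhb5 in MHb (6.61 and 6.56). Genes that share probes would also not count separately. Pcdhb6 stood at 5.34, 5.87, 5.17 and 4.79 under propofol in LHb, MHb, Sol and MVe, against 4.74, 4.79, 4.81 and 4.08 under Intralipos, a difference of 0.69 ± 0.18 (limma adjusted p = 0.623). For sevoflurane minus O2 the median was 0.26, with 0 called and 2 at an unadjusted limma p under 0.05.

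Among 6 large atypical cadherins, 1 was higher and 1 lower in LHb than in MHb (28.5% of all genes called). In Sol against MVe 3 were higher and 0 lower (35.2%), and in habenula against hindbrain 1 was higher and 1 lower (38.1%). Fat3 was lower in LHb than in MHb by -2.69 ± 0.15, higher in Sol than in MVe by 1.66 ± 0.15, and higher in the habenula than in the hindbrain by 2.39 ± 0.11, while Dchs1 was higher in Sol than in MVe by 2.41 ± 0.15. Among 6 cadherin-related genes, 2 were higher and 3 lower in the habenula than in the hindbrain (38.1% of all genes called). The counts were also 2 higher and 3 lower in LHb against MHb (28.5%). Cdhr1 and Clstn1 were the 2 higher in the habenula, by 2.36 ± 0.13 and 1.97 ± 0.11, and Clstn2 was lower in LHb than in MHb by -2.65 ± 0.19. Of 4 desmosomal cadherins 0 differed among the regions in the limma F test, which 54.1% of all genes passed.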
